A study of Mus musculus with 4 samples.

Results

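The IL-10 family consists of the cytokines IL-10, IL-19, IL-20, IL-22 and IL-24 and of the class II receptor chains that bind them. Th17 cells, the CD4 T cells defined by IL-17 production, can make IL-22, which acts on epithelial cells, and IL-10, which restrains inflammation. Each cytokine binds a receptor of paired chains, and the chains signal through the kinases JAK1 and TYK2 to STAT3. The 10 genes described here were chosen by name from the authors' deposited table of 23356 gene rows. Of them, 4 encode cytokines (Il22, Il10, Il24 and Il19) and 6 encode receptor chains (Il10ra, Il10rb, Il20ra, Il20rb, Il22ra1 and Il22ra2), and each matched a single row.

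Transcripts were measured by RNA sequencing in 4 libraries of Th17 cells cultured for 48 h from wild-type C57BL/6 mice aged 6 to 8 weeks. The vehicle group, whose treatment label is none, and the group given SAA1, which is recombinant murine serum amyloid A1 and belongs to the acute-phase proteins, hold 2 libraries each. The labelled SAA1 concentration is 2 ng/ml. The series concerns a circuit of IL-23R, IL-22 and epithelial serum amyloid A, and the comparison asks how transcripts of cultured Th17 cells differ when SAA1 is present.

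The deposited table gives a single value per group, in FPKM, a fragment density scaled for transcript length and for the fragments mapped. The spread between libraries, the overlap of the groups and the depth per library are therefore unknown, and the labels do not say whether the libraries came from separate mice or cultures. The labelled cell type was checked against marker lists. The 7 T cell markers found in the table summed to 1333 FPKM with vehicle and 1250 with SAA1; among them Thy1 was called higher and Cd3e lower by Cuffdiff's adjusted p in the authors' deposited table. Over all tested rows, 3.97% were called higher and 2.55% lower. Each of 6 Th17 markers was above 1 FPKM in both groups, and all 6 were called higher with SAA1. These 6 summed to 276 FPKM with vehicle and 1789 with SAA1. Il17a, Il17f and Ccl20 held most of that sum. The part of this shift in the results below was not tested. Markers of other cells that can make IL-22 or IL-10 were present at lower levels. The 11 myeloid markers summed to 2.21 and 1.48 FPKM, of which Cd68 held 1.58 and 1.05 FPKM, with C1qa and C1qb listed at 0 in both groups, and the 6 B cell markers to 2.04 and 1.59 FPKM. The 8 markers of natural killer, innate lymphoid and CD8 cells summed to 38.3 and 38.7 FPKM. Of these, Id2, which T cells also express, held 33.6 and 33.99 FPKM. Cd8b1 was at 4.32 and 4.24 FPKM, above Il22, whereas Cd8a was at 0.164 and 0.103 FPKM. Apart from Id2 and Cd8b1, no gene of the list exceeded the 0.180 FPKM of Eomes with vehicle. Klrb1c was listed at 0 in both groups. None of the tested markers in these 3 lists was called, and their part in the results was not tested. In these bulk samples, fewer cells of a type and less RNA per cell cannot be told apart.

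Il22 was the only member called as changed, and it was lower with SAA1. It fell from 1.59 FPKM with vehicle to 0.348 FPKM with SAA1, a 4.57-fold decrease. The log2 ratio was -2.19 ± 0.71 (SE implied by the authors' test statistic, 2 libraries a group), with a 95% interval from -3.59 to -0.80 under a normal approximation. In the authors' deposited table, Cuffdiff's test gave p = 0.00145 and an adjusted p of 0.027. Read as a normal deviate and adjusted over all tested rows, the same statistic gave an adjusted p of 0.064, which misses the threshold of 0.05. In that adjustment 78 tested rows with an infinite statistic took the smallest possible p, which can only lower the value for Il22. Cuffdiff's own p, adjusted over rows at 1 FPKM or more, gave 0.0269.

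Of the 10 members, 5 were tested by the authors and 5 were not. Cuffdiff's adjusted p called 0 of the 5 as higher and 1 as lower. Over all 11481 tested rows, 6.52% were called in either direction, with 3.97% higher and 2.55% lower. Before adjustment, p was under 0.05 for Il22 and Il10 among the members, and 15.8% of all tested rows passed that mark. With so few members tested, their share and that of all rows cannot be set apart.

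**Figure D1:**
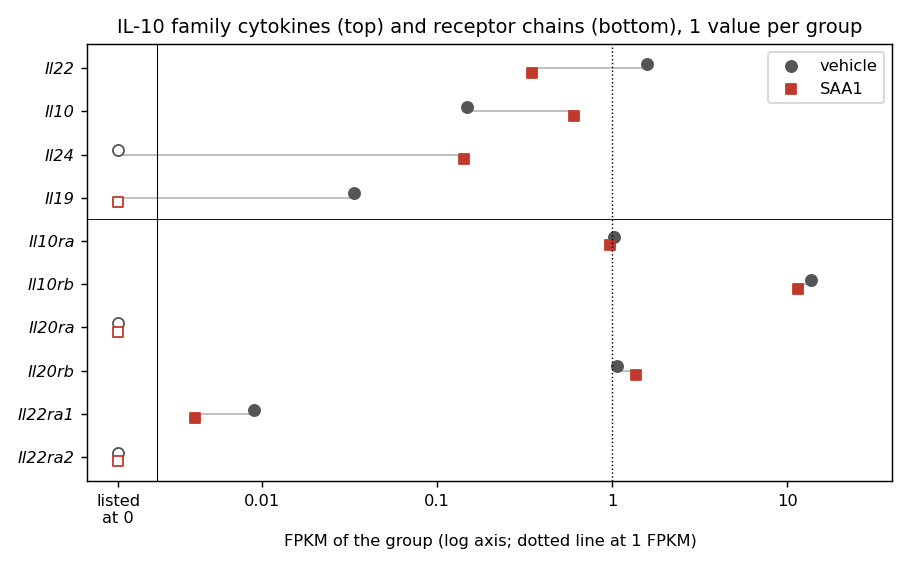
FPKM of the 10 members on a log axis, with a circle for vehicle and a square for SAA1, each the authors' value for 2 libraries; open symbols on the left are values listed at 0. Il10rb stands highest at 13.6 and 11.6 FPKM, Il22 is lower with SAA1 at 0.348 FPKM, and Il20ra and Il22ra2 are listed at 0 in both groups.

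Il22 lies on chromosome 10 from 118204964 to 118210046 on mm10, on the plus strand, with 5 exons in GENCODE M21, and no other row of the table overlaps it. A near-identical copy, Iltifb, lies 79.6 kb beyond the Il22 end at its nearest base, on the opposite strand. In GENCODE M21 the coding sequences of both genes are 540 bases long and differ at 9 positions, an identity of 98.33%, and the longest stretch without a difference is 215 bases. Over the whole transcripts, of 1110 and 1111 bases, 30 positions differ and the identity is 97.3%, so most differences lie outside the coding sequence. The sequences below are coding bases 128 to 217, counted from the A of the start codon. They hold 4 of the 9 differences and cross the first intron of that annotation. They are shown because a fragment can be placed in Il22 or in Iltifb by sequence alone only where it covers such a difference, given in capitals.
Il22 (chr10:118205118-118205600, plus strand): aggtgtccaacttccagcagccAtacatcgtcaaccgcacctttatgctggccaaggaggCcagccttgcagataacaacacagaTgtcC
Iltifb (chr10:118294380-118294862, minus strand): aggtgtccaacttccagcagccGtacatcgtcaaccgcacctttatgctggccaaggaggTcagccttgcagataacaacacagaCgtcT
The table places almost all of the signal of this pair in the Il22 row. Iltifb was at 0.0279 FPKM with vehicle, where Il22 was 57.0 times as high, and was listed at 0 with SAA1. It was not tested. No label or header states how the authors' run divided fragments that match both genes, and the Il22 values are uncertain to that extent.

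The sequence upstream of Il22 is shown because it is the called member and because several of its known regulators also differed between the groups. RefSeq promoter windows on GRCm38.p6 (250 bases before to 50 after the annotated start) were found for 5 of the 10 members. The Il22 window is given up to the base before the GENCODE start, with the capitals marking the letters TATAAA, the core of the TATA motif, searched on the gene's strand.
Il22 upstream (chr10:118204714-118204941, plus strand): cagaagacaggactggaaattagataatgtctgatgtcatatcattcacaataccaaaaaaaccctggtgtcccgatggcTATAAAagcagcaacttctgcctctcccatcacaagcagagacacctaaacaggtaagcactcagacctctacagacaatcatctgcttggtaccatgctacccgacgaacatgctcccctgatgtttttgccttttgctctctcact
TATAAA begins 170 bases before the RefSeq start, farther upstream of that annotated start than a TATA box usually lies. Whether transcription also starts upstream of the annotated starts was not examined, so the distance to the start in use is unknown. Of 32851 RefSeq windows of the same length, 8.32% hold TATAAA. It is a match of letters only. None of the other letters searched on both strands is in the Il22 window: GCGTG (the AHR core, in 32.4% of all windows), TTCNNNGAA (STAT, 8.3%), TGANTCA (AP-1, 7.81%) and TGCTGA (a MAF site, 19.5%). Absence from this window says nothing of binding elsewhere.

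By size, the fall of Il22 ranked 3 among the 278 called decreases that reached 1 FPKM in either group. The implied SE of 0.71 was large for such a gene. Among 1647 other tested rows whose higher group value was within 2-fold of that of Il22, the median SE was 0.37, and 85.8% had a smaller one. In that band 11.2% of rows were called, 127 higher and 57 lower, and 8 of the 16 rows with a log2 ratio at least as large in size were called. The 16 take in any tested row with a group listed at 0, whose ratio counted as infinite. The 2 widest errors among the tested members belonged to the shortest transcripts: Il22 and Il10 have 1110 and 1310 bases in GENCODE M21. The 3 tested receptor chains have 1850 to 3498 bases, and their SE lay between 0.23 and 0.37. Among these chains the error did not follow length, since Il10rb, the shortest, had the smallest SE. Il10rb was also the most abundant, at 13.6 and 11.6 FPKM. Il22 with SAA1 and Il10 with vehicle were at 0.348 and 0.148 FPKM. The part of length or of level in the error was not tested.

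The 3 genes with group values most like those of Il22 were 4930506M07Rik, Fam84a and Ampd3, taken as the nearest in log2(FPKM + 0.1) over the 2 group values. Fam84a was at 1.28 and 0.500 FPKM and Ampd3, an AMP deaminase, at 1.17 and 0.463 FPKM. 4930506M07Rik was at 1.35 and 0.265 FPKM. Their log2 ratios were -1.36 ± 0.41, -1.34 ± 0.40 and -2.35 ± 0.42, and in the authors' deposited table Cuffdiff's adjusted p was 0.0019 for each.

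Il10, the founding cytokine of the family, had the opposite sign and was not called. It was at 0.148 FPKM with vehicle and 0.602 FPKM with SAA1. The log2 ratio was 2.02 ± 1.04, with a 95% interval from -0.01 to 4.06, that is from 0.992-fold to 16.7-fold. In the authors' deposited table Cuffdiff's p was 0.0249 and its adjusted p 0.20. The interval does not match that p: it reads the statistic as a normal deviate, for which the unadjusted p was 0.0513. Its higher value lies near the lowest level at which the authors tested: the higher group value was at least 0.4906 FPKM in every tested row, and in 219 tested rows it was below that of Il10. Of 979 other tested rows within 2-fold of Il10, 7.05% were called, and of the 19 with a ratio at least as large in size, 6 were called. Here too, a tested row with a group listed at 0 counted as having an infinite ratio. The order of the cytokines differed between the groups, with Il22 at 10.7 times the Il10 level with vehicle and Il10 at 1.73 times the Il22 level with SAA1. No error is given for a level, so whether the second order lies beyond the spread between libraries is unknown.

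Il24 and Il19, cytokines best known from skin and other epithelia, were at the floor of the table. Il24 was listed at 0 with vehicle and at 0.142 FPKM with SAA1. Il19 was at 0.0335 FPKM with vehicle and was listed at 0 with SAA1. Neither was tested, and no fold is given against a group listed at 0. Both lie beside Il10 and Il20 in a cluster on chromosome 1, where Il24 spans 130882074 to 130887411, Il19 130932656 to 130939241 and Il10 131019845 to 131024970. Il20, which lies between Il24 and Il19, was at 0.0392 FPKM with vehicle and listed at 0 with SAA1.

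**Figure D2:**
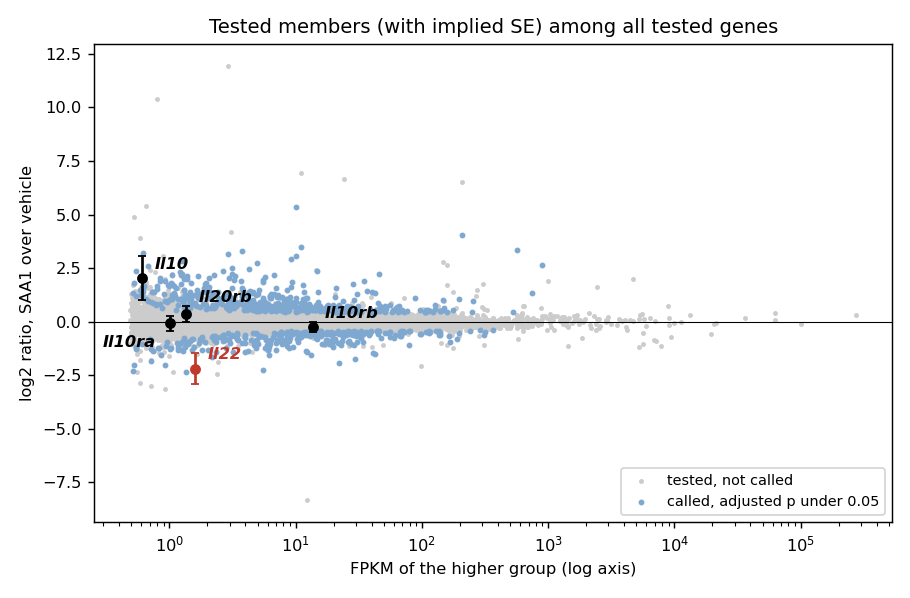
Log2 ratio of SAA1 over vehicle against the FPKM of the higher group (log axis) for 11403 tested rows with a finite ratio, with the 5 tested members and bars of ± 1 implied SE. Il22 lies at -2.19 among called genes, Il10 at 2.02 has the widest bar, and the 3 receptor chains lie within 0.35 of 0.

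The receptor chains that were expressed did not pass the test. Il10rb, the chain shared by the receptors for IL-10, IL-22 and type III interferon, was the most abundant member, at 13.6 FPKM with vehicle and 11.6 FPKM with SAA1. Its log2 ratio of -0.24 ± 0.23 had a 95% interval from -0.68 to 0.21, or from 0.622-fold to 1.16-fold, with an adjusted p of 0.55 by Cuffdiff in the authors' deposited table. Il10rb alone made up 77.9% of the summed FPKM of the 10 members with vehicle and 77.1% with SAA1.

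Il10ra, the chain that gives the receptor its specificity for IL-10, was at 1.02 and 0.971 FPKM. The log2 ratio was -0.07 ± 0.35, with an interval from -0.77 to 0.62 and an adjusted p of 0.97 by Cuffdiff in the authors' deposited table. Per length, Il10rb was 13.3 times as abundant as Il10ra with vehicle and 11.9 times with SAA1. Both chains of the IL-10 receptor were thus listed in each group, with Il10ra at about 1 FPKM.

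Il20rb, the shared chain of the receptors for IL-19, IL-20 and IL-24, was at 1.07 and 1.36 FPKM, with a log2 ratio of 0.35 ± 0.37. Its interval ran from -0.37 to 1.06, and Cuffdiff's adjusted p was 0.61 in the authors' deposited table. Il20ra, its partner in the type I receptor, was listed at 0 in both groups. Il22ra1, its partner in the type II receptor and the ligand-specific chain for IL-22, was at 0.00890 and 0.00410 FPKM. Il22ra2, which encodes the soluble IL-22 binding protein, was listed at 0 in both groups. These 3 genes were not tested. For the IL-22 receptor and both receptors of the IL-20 group, the table thus lists Il10rb or Il20rb without a partner chain above 0.01 FPKM in either group.

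In order of level with vehicle, the members ran Il10rb, Il22, Il20rb, Il10ra, Il10, Il19 and Il22ra1, followed by Il24, Il20ra and Il22ra2 at 0. With SAA1 the order was Il10rb, Il20rb, Il10ra, Il10, Il22, Il24 and Il22ra1, followed by Il19, Il20ra and Il22ra2 at 0. The table gives no error for a level within a group, so neighbours in either order could not be compared. At least 1 FPKM was reached by 4 members with vehicle and by 2 with SAA1.

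Other genes of the class II cytokine system showed no call. Of 10 genes, 5 were tested, and Cuffdiff's adjusted p called 0 of them in the authors' deposited table. Over all tested rows 6.52% were called, and a list this short cannot be set apart from that share. Of the 5, 1 had an unadjusted p under 0.05 by Cuffdiff, beside 15.8% of all tested rows. That gene was F3, tissue factor, a relative of the receptor chains, at 2.51 and 3.81 FPKM (log2 ratio 0.60 ± 0.32, adjusted p 0.10 by Cuffdiff in the authors' deposited table). The interferon receptor chains Ifnar1, Ifnar2, Ifngr1 and Ifngr2 ranged from 10.3 to 19.1 FPKM over both groups, and their log2 ratios from -0.17 to 0.26. Ifnlr1, which pairs with Il10rb, was at 0.0602 and 0.0604 FPKM. The median log2 ratio of the 5 members at 1 FPKM or more was 0.08, beside -0.02 over all 10701 such rows.

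The kinases and STAT factors below these receptors were expressed in both groups and held no call. Of 11 tested signalling genes, Cuffdiff's adjusted p called 0 in the authors' deposited table, beside 6.52% of all tested rows. With 11 genes, 0 calls cannot be set apart from that share. Cuffdiff's unadjusted p was under 0.05 for 1 of the 11 and for 15.8% of all tested rows. That gene was Socs3, the feedback inhibitor that STAT3 induces. Socs3 was at 13.3 and 17.9 FPKM (log2 ratio 0.43 ± 0.22, adjusted p 0.069 by Cuffdiff in the authors' deposited table). Stat3 was at 112 and 133 FPKM, Stat5b at 47.5 and 54.4 FPKM, Tyk2 at 16.9 and 14.5 FPKM and Jak2 at 189 and 165 FPKM. Jak1, whose locus overlaps another row, was at 48.2 and 42.3 FPKM. Their log2 ratios lay between -0.22 and 0.25, and the median of the list was -0.01.

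Genes known to respond to IL-10, mostly from work on myeloid cells, went both ways. Of 10 tested, 2 were called higher and 1 lower by Cuffdiff's adjusted p in the authors' deposited table, against 3.97% and 2.55% of all tested rows. Nfil3, a transcription factor that is also known to promote Il10, rose from 9.32 to 15.6 FPKM (log2 ratio 0.74 ± 0.23). Ddit4, which restrains mTORC1, rose from 99.6 to 146 FPKM (0.55 ± 0.20). Tnip3, an inhibitor of NF-kB signalling, fell from 6.09 to 2.42 FPKM (-1.33 ± 0.26). Ddit4 was not called when the statistic was read as a normal deviate. The median of the list was 0.17. This list was chosen with earlier results of these data known, so its share of calls cannot be weighed against that of all rows.

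Known regulators of Il22 included several increases beside the lower Il22. Of 19 tested, 5 were called higher and 1 lower by Cuffdiff's adjusted p in the authors' deposited table, beside 3.97% higher and 2.55% lower over all tested rows. Among factors known to promote Il22, increases were seen for Ahr, the aryl hydrocarbon receptor, from 3.58 to 11.5 FPKM (log2 ratio 1.69 ± 0.22), and Rbpj, the DNA-binding partner of Notch, from 12.2 to 23.6 FPKM (0.95 ± 0.21). Il23r, the receptor chain for IL-23, rose from 7.32 to 10.5 FPKM (0.52 ± 0.23). Maf, a factor known to repress Il22 and to promote Il10, rose from 2.87 to 14.9 FPKM (2.37 ± 0.25). Gata3, the Th2 lineage factor, fell from 1.36 to 0.687 FPKM (-0.98 ± 0.39). Il23r and Gata3 were not called with the normal reading of the statistic, while Maf, Ahr and Rbpj were. The median of the list was 0.25, and 13 of its 19 members had a log2 ratio above 0, beside 4937 of all 10701 rows at 1 FPKM or more. Because the list was chosen with earlier results of these data known, its shares cannot be weighed against those of all rows. These genes were measured as transcripts only, and their part in the level of Il22 was not tested.

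Regulators of Il10 share 6 genes with that list. Of 15 tested, 3 were called higher (Maf, Ahr and Nfil3) and 1 lower (Gata3, lost with the normal reading) by Cuffdiff's adjusted p in the authors' deposited table, where 3.97% of all tested rows were higher and 2.55% lower. The median was -0.03, and 7 of the 15 members had a log2 ratio above 0, beside the 4937 of 10701 rows given above. The choice of this list with earlier results known limits these shares in the same way. Prdm1, which encodes Blimp-1 and is named here because it was the gene left untested, was at 0.0169 and 0.0303 FPKM.

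**Figure D3:**
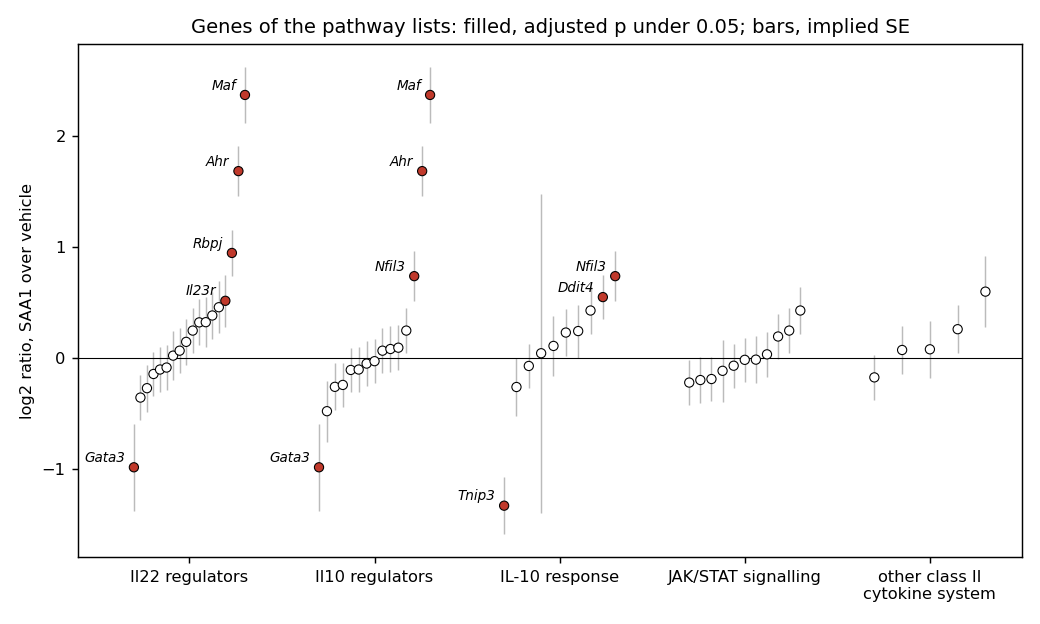
Log2 ratio of SAA1 over vehicle for the tested genes of 5 lists (a called gene of the Il22 regulators is not drawn), ordered by value within a list, with bars of ± 1 implied SE and filled symbols for an adjusted p under 0.05 in the authors' deposited table. Maf (2.37) and Ahr (1.69) stand highest in both regulator lists, and the JAK/STAT signalling genes lie between -0.22 and 0.43 with no call; the long bar belongs to Sbno2, whose locus overlaps other rows.

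The rows next to the members on the chromosome were examined as well. The nearest 2 rows on each side of each member, other than members, made 29 rows, of which 11 were tested. Mdm1, 36.0 kb from Il22 on its other side, rose from 5.78 to 8.71 FPKM (log2 ratio 0.59 ± 0.23), opposite to Il22. Ifng, which encodes interferon-γ and lies 231 kb from Il22, was at 0.165 and 0.101 FPKM and was not tested. Slc35d3, 87.9 kb from Il20ra, fell from 7.71 to 5.06 FPKM (-0.61 ± 0.25). Mdm1 and Slc35d3 were the calls among these rows, with adjusted p of 0.0092 and 0.014 by Cuffdiff in the authors' deposited table. Neither gene was called with the normal reading. The calls were thus 1 higher and 1 lower of 11 tested rows, beside 3.97% higher and 2.55% lower over all tested rows. With so few neighbours tested, these shares cannot be set apart.

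Beside the Il10 cluster, Mapkapk2, a kinase of the p38 pathway that starts 28.7 kb from Il10, was at 122 and 142 FPKM, with a log2 ratio of 0.22 ± 0.20, and Dyrk3 at 9.80 and 9.76 FPKM. Ifnar2, which ends 0.648 kb before Il10rb, was at 15.1 and 16.0 FPKM, and Nck1, 8.53 kb from Il20rb, at 21.3 and 22.0 FPKM. Srsf10, near Il22ra1, was at 49.0 and 45.7 FPKM and Pex7, near Il20ra and Il22ra2, at 19.0 and 18.8 FPKM. These neighbours were named because they reached 1 FPKM, which 10 of the 29 rows did; Faim3, the row nearest to Il24, was at 0.0191 and 0.0340 FPKM.

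Set against the cytokine that defines these cells, Il22 was a minor transcript in both groups. Per length, Il17a was at 35.2 times the Il22 level with vehicle and at 1632 times with SAA1. Both genes moved, as Il17a rose from 56.0 to 568 FPKM. The second ratio divides by an Il22 value of 0.348 FPKM, and no error is given for either ratio.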

How the data were processed

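RNA of 4 libraries of cultured Th17 cells, 2 per group by their titles, was measured. TopHat2 and Cuffdiff, without versions, and the builds mm9 and mm10 are named in the submitters' processing notes; no label or header states their settings, scaling or handling of multiply mapped fragments. The deposited table holds, per the file headers, FPKM per group, a test statistic (a score, the log ratio over its SE) and a p-value and q-value per gene, all made by the authors. The log2 ratio was recomputed from the deposited FPKM, and its SE taken as that ratio over the statistic. Read as a normal deviate, the statistic gave a larger p than the deposited one in 11228 of 11481 tested rows. The SE and intervals therefore need not match the deposited p. Tests foreseen for values per library could not be used. Of 21458 rows with a symbol in the GRCm38 RefSeq table, 99.0% overlapped the GRCm38 position, so coordinates are on mm10, counted from 1. Deposited q-values were recomputed by Benjamini-Hochberg with a largest gap of 5.23e-07. Depth is unknown and no counts were recovered, so no counting interval is given.

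The 10 members and all lists were chosen with earlier results of these data known. Named are all members, up to 6 genes per list (called genes first, otherwise the largest ratios), neighbouring rows that reached 1 FPKM or were called, and the 3 genes nearest to Il22. Thy1, Cd3e, Il17f, Ccl20, Cd68, Cd8b1, Cd8a, Eomes, Faim3, C1qa, C1qb, Klrb1c, Id2, Iltifb, Il20, Ifnlr1, Ifng, Prdm1, Sbno2 and Il17a were named after their values were seen. A gene that the rule names is not reported here. List medians use a pseudocount of 0.1 and members at 1 FPKM or more in either group. Python 3.11.15, scipy 1.17.1 and pandas 2.3.3 were used, and the adjustment was tested on simulated data. Alternatives covered thresholds, a minimum fold, a minimum level, the adjustment, the pseudocount and centring. Reading the statistic as a normal deviate was added after seeing the data.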

Additional observations from a re-analysis of the deposited data

How the results depend on the processing

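No paired analysis was possible because the table gives a single value per group; the replicate block and the omission of each replicate were therefore not run. The log2 ratios of the 5 tested members kept their sign with pseudocounts of 0.1 and 1, which cannot change it. They also kept it after centring on the median, a small shift that moved the Il10ra ratio from -0.07 to -0.05. With a pseudocount of 1 the Il22 log2 ratio was -0.94 and that of Il10 0.48, since a pseudocount shrinks low values by construction. The Il22 call could not be lost at a threshold of 0.1, a minimum of 1.5-fold or a minimum of 1 FPKM, given its values. It also held when Cuffdiff's p was adjusted over rows at 1 FPKM or more (0.0269). At a threshold of 0.01 the members called lower numbered 0, as did the Il22 regulators, the Il10 regulators and the neighbouring rows called lower (Gata3 and Slc35d3 lost). With the normal p, 345 of 11481 tested rows were called instead of 749, since that p exceeded the deposited p in 11228 rows. The 345 include 78 rows with an infinite statistic, which took the smallest possible p. Their inclusion can only lower the adjusted p of other rows, Il22 among them. Under the normal p the members called lower and the regulators of either cytokine called lower numbered 0. So did the neighbouring rows called in either direction. The adjusted p of Il22 from this reading was 0.0638, and IL-10 response genes called higher numbered 1. At a threshold of 0.1 the signalling genes called higher numbered 1 (Socs3). The other list counts stayed within 1.5 times their value, and list medians moved by less than the median SE of their members. The unknown depth limits values under 1 FPKM most, among them the SAA1 values of Il22 (0.348 FPKM) and Il10ra (0.971 FPKM); of the members under 1 FPKM in both groups, only Il10 was tested by the authors.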
